A study of Mus musculus with 11 samples.

Results

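Chromatin accessibility was compared between naive CD4 T cells that differ in a reporter of T cell receptor signalling while sharing surface Ly6C. Population B was intermediate for the reporter and Ly6C positive, population A was low for the reporter and Ly6C positive. The members were chosen by sample label. They were the 3 libraries of B (mice 1, 2 and 3) and the 2 libraries of A (mice 1 and 3), 5 of the 11 libraries of the series, read at all 45508 listed peaks. The other 6 libraries came from Ly6C negative cells, intermediate (population C) or high (population D) for the reporter, with 3 libraries each. All cells were CD4 positive, low for CD44 and negative for a Foxp3 reporter, and came from spleen and lymph nodes of untreated mice. Every mouse, in all 4 populations, carried the Tg(Nr4a1-EGFP)GY139Gsat transgene and the Foxp3tm1Flv targeted mutation on a C57/BL6 background. The transgene makes green fluorescent protein under control of Nr4a1 sequence, and the targeted mutation marks Foxp3 expressing cells in red. The cells received no receptor stimulus after harvest. Each library is 1 population of 1 mouse. P-values from fits without a term for the mouse measure the spread between mice of the same population. Where the mouse was fitted as a block, they measure the spread left once differences shared by a mouse's libraries are removed. A population A library of mouse 2 was not analysed here.

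Nr4a1 encodes Nur77, an orphan nuclear receptor and immediate early gene that T cells induce when their antigen receptor signals. In resting animals its reporter level is read as the strength of recent signalling from self peptides presented by major histocompatibility molecules. CD5, a surface inhibitor of T cell receptor signalling, is known to follow the same self reactivity, and Ly6C marks the less self reactive naive CD4 cells. ATAC-seq reads open chromatin from the DNA that the transposase Tn5 can cut and tag, and regulatory elements such as promoters and enhancers appear as peaks. Accessibility is given as rppm, the authors' reads scaled to library size (RPM).

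Sequences are shown for the promoters that bear on these genes. They are the 250 bases before the start site, from RefSeq (GRCm38.p6, the assembly of mm10), each covered at least in part by a listed peak. Tnfsf11 and A530021J07Rik are shown because the peak over their start was called higher in B once the mouse was in the model. Nr4a1 and Cd5 are shown because they are the genes of the reporter and of the run with the most separated peaks, where the promoter peak had a smaller log2 change than a peak away from it. They lie at chr14:78308044-78308293 on the minus strand, chr7:83148220-83148469 on the plus strand, chr15:101266596-101266845 on the plus strand and chr19:10738975-10739224 on the minus strand, in the order of the lines. Capitals mark matches on either strand to the motifs searched.
Tnfsf11 promoter: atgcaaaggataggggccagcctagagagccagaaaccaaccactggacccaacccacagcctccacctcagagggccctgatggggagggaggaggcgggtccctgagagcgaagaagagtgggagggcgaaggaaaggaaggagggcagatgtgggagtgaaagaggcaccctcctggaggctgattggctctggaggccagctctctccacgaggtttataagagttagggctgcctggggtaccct
A530021J07Rik promoter: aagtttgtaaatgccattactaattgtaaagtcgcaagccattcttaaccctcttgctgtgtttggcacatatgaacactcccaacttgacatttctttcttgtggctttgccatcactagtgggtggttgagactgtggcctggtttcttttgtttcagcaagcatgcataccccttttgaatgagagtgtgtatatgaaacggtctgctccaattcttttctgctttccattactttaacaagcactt
Nr4a1 promoter: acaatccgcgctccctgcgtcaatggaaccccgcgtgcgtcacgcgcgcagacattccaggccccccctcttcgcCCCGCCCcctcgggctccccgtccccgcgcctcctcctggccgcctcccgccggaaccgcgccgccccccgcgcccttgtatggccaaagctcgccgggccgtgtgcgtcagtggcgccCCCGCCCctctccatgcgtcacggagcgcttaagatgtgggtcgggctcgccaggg
Cd5 promoter: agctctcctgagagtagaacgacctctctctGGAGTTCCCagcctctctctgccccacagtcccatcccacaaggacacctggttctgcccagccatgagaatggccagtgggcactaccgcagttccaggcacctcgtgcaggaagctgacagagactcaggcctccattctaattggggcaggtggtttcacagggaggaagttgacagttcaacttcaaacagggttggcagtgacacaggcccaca

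Motifs were searched on both strands. Factors that T cell receptor signals activate came first. The AP-1 motif, bound by Fos and Jun proteins, was TGANTCA. For NFAT, the calcineurin dependent factor, the core GGAAAA was used. The NR4A family, Nur77 included, was read by the letters AAAGGTCA. EGR proteins were represented by the string GTGGGCG and NF-kB proteins by the palindrome-like string GGGANNTCC. Lineage and naive state factors followed. ETS proteins had the letters CCGGAAG, while RUNX proteins had the letters TGTGGTT. TCF and LEF proteins were searched with CTTTGAT, whereas FOXO proteins were searched with GTAAACA. The E-box bound by E proteins was CAGCTG, and the motif of the GATA family was AGATAA. Cytokine and interferon factors were covered by GAAANNGAA for the IRF family, and by TTCNNNGAA for the STAT family. For KLF and SP proteins the letters were GGGCGGG, which can share bases with a match for EGR. The KLF/SP motif matched at 2 places in the Nr4a1 promoter, and 23.4% of 32851 RefSeq promoters of the same length hold it. The NF-kB motif matched at 1 place in the Cd5 promoter, and 3.59% of promoters hold it. No letters of the 14 motifs matched in the windows of Tnfsf11 and A530021J07Rik. The sites away from promoters are given by position only.

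The totals behind the values were 9194084 and 9933354 reads in A and 8736371, 8980067 and 25061502 in B, so 10 rppm stood for 87 to 251 reads. They were recovered from the smallest step between values of each library. Library B of mouse 1 stood apart at a few very high peaks. The highest, on chromosome 1 (mm10, 24612851 to 24616135), held 826 rppm in it and 5400 to 6405 rppm in the other A and B libraries, and B against A was not called at it (log2 -0.89, limma adjusted p = 1). The labelled cell type matched its markers. The intron 1 peak of Cd4 held 57.3 and 53.0 rppm in A and 56.4 to 58.9 rppm in B, while the intron 4 peak of Cd8a held 4.23 to 6.90 rppm and the only listed peak of Foxp3 3.12 to 4.43 rppm over the 5 libraries. In these bulk libraries a change in the share of cells with an open site and a change within each cell cannot be told apart.

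Little separated the populations when mice were ignored. By limma on log2(rppm + 1) without a term for the mouse, 0 of 45508 peaks (0%) were called at an adjusted p below 0.05, and the lowest adjusted p was 0.287. At an unadjusted p below 0.05, 1036 peaks (2.28%) were higher in B and 182 (0.4%) lower, so 85.1% of them were higher. This split was 65.2% higher after quantile normalization (538 higher, 287 lower) and 60.2% without mouse 1 (1922 higher, 1270 lower). The counts fell to 225 and 28 without mouse 3, to 559 and 109 without replicate 3 of A and to 673 higher without replicate 1 of B. Here and below, fits without mouse 1, mouse 3 or a library of A keep 1 library of A, so their p-values hold no spread within A. EdgeR called 0 peaks on the recovered reads, with 1523 at an unadjusted p below 0.05, and DESeq2 called 8 higher and 0 lower, with 750 at an unadjusted p below 0.05. The log2 change over all peaks had a median of 0.01, an SD of 0.168 and a range of -0.90 to 1.29. Of all peaks, 44659 (98.1%) had a 95% interval of the change that lay within 1 log2 unit in either direction, and 601 had one that reached 1 upward.

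Libraries of the same mouse deviated together, so the mouse was also fitted as a block. With the block, limma called 21 peaks higher in B (0.0461% of all) and 6 lower (0.0132%), at a lowest adjusted p of 0.0058. At an unadjusted p below 0.05 the block gave 2627 higher (5.77%) and 972 lower (2.14%). All peaks named below for their call with the block were chosen after their values were seen. The number of such calls depended on single libraries. Against 27 in the whole set, it was 2 and 8 without replicate 1 or 3 of A, and 21, 4 and 6 without replicate 1, 2 or 3 of B. It was 10, 9 and 11 without replicate 1, 2 or 3 of C, and 126, 11 and 15 without replicate 1, 2 or 3 of D, where D replicate 1 is the shallowest library. Without a whole mouse it was 1467 (mouse 1), 2 (mouse 2) and 3 (mouse 3). Fits without replicate 1 or 3 of A, mouse 1 or mouse 3 keep 1 library of A. Their p-values hold no spread within A, so their counts only describe how far the calls move. In the mice with both populations, the B minus A changes over all peaks had r = 0.147 between mouse 1 and mouse 3 (a description over peaks, which are not independent), and 54.6% of peaks had the same sign. The plot of the change in each mouse shows a cloud centred on 0, with the 21 peaks at its upper right edge.

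**Figure D1:**
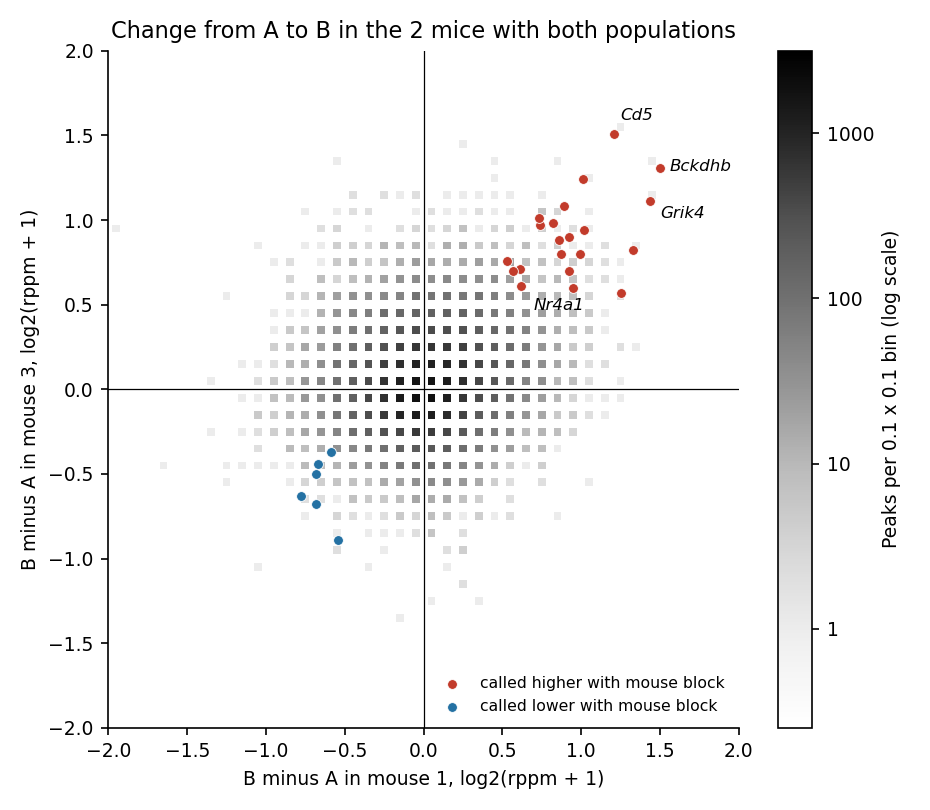
Change in log2(rppm + 1) from A to B in mouse 1 (x axis) and in mouse 3 (y axis). Grey squares are bins of peaks, shaded by their number on a log scale, over 45497 of 45508 peaks. The 21 peaks called higher with the mouse as a block (red) lie up and right in both mice and the 6 called lower (blue) down and left.

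With the mouse in the model, a site at the reporter's own gene was more open in B. The peak 8.26 kb before the start of Nr4a1 (chromosome 15, 101258166 to 101259002, intergenic) held 31.1 and 31.3 rppm in A and 48.4, 38.0 and 48.4 rppm in B. Every library of B lay above both of A, and the A libraries were almost equal. With the block it rose by a log2 of 0.62 (SE 0.10, limma adjusted p = 0.0334), and without it the change was 0.50 (SE 0.17, limma adjusted p = 1). The call with the block held in 2 of 11 fits that each left out 1 library. Of the 5 of these fits that left out an A or B library, it held in 0. Of all peaks, 12.3% had every B library above every A library and 2.28% were higher at an unadjusted p below 0.05. Of the 8 peaks assigned to Nr4a1, 4 had every B library above every A library, 4 were higher at an unadjusted p below 0.05 and 0 lower, and log2 changes ran from 0.08 to 0.53. The peak over its start site (101266236 to 101268099) held 87.7 and 88.0 rppm in A and 111, 104 and 114 rppm in B (log2 0.32, SE 0.12, limma unadjusted p = 0.0237). Nr4a1 sequence in the transgene would give reads at the same places, and its part in these values was not tested. Of its relatives, Nr4a2 had 0 of 4 peaks and Nr4a3 1 of 10 peaks higher at an unadjusted p below 0.05, and whether the genes differ was not tested.

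The run with the most separated peaks covered Cd5 and Cd6. CD6, a relative of CD5 encoded beside it, also binds ligands on other cells and tunes T cell receptor signals. From the first Cd5 peak to the last Cd6 peak (chromosome 19, 10723596 to 10831889, 108.3 kb) there were 30 peaks, and in 27 of them every B library lay above both A libraries. Over all peaks this held for 5619 (12.3%), and the reverse, every B below every A, for 3489 (7.67%) and for 0 of the 30. At an unadjusted p below 0.05, 20 of the 30 were higher and 0 lower, and their median log2 change was 0.53, from 0.07 to 1.13. The summed accessibility of the 30 peaks was 227 and 212 rppm in A, 323, 305 and 314 in B, and from 333 up to 358 for C and from 375 up to 430 for D. The B libraries were close to each other and clear of the A libraries, and 29 of the 30 peaks were higher in mouse 1 and 30 in mouse 3. In the 27 separated peaks a rise in both mice follows from the separation itself. The stretch was picked after its values were seen and carries no test of its own, also when libraries are left out. Its median stayed between 0.45 and 0.55 without any mouse, any A or B library, or under other scalings, with 9 (without mouse 3) to 20 peaks higher at an unadjusted p below 0.05.

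Within Cd5 intron 1 held the largest change. The peak 6.87 kb into the gene (10731735 to 10732468) held 6.2 and 4.63 rppm in A and 15.7, 9.16 and 15 rppm in B, while C stood at 10.4 to 18.6 and D at 12.2 to 17.4. The A libraries stood below all 9 others, which overlapped with each other. The rise was 1.33 on the log2 scale with the block (SE 0.15, 95% interval 1.01 to 1.64, limma adjusted p = 0.0058), and 1.13 without it (SE 0.26, limma adjusted p = 0.826). The call held in 10 of 11 fits that each left out 1 library. Of the 5 of these fits that left out an A or B library, it held in 4. A neighbouring peak (10732876 to 10733145) held 1.41 and 1.51 rppm in A and 4.34, 4.46 and 3.55 in B (log2 1.05, SE 0.18, limma adjusted p = 0.287, and 0.0664 with the block). The Cd5 promoter peak (10738610 to 10739263) moved less (log2 0.26, SE 0.12, limma unadjusted p = 0.0592).

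Between Cd5 and Cd6 the peaks are assigned to the non-coding gene A430093F15Rik, and 15 of its 16 had every B above every A. The one at 10747251 to 10748374, in its intron 1, held 14.4 and 12.7 rppm in A and 22.4, 25.9 and 21.4 in B and rose with the block (log2 0.68, SE 0.11, limma adjusted p = 0.0268). The Cd6 peak with the smallest p (10787314 to 10788088) held 20.1 and 20.6 rppm in A and 31.4, 27.9 and 27.6 in B (log2 0.48, SE 0.11, limma adjusted p = 0.718, and 0.073 with the block). Accessibility was also higher on the far side of Cd5, where a Vps37c peak (10715109 to 10716054) had a log2 change of 0.96 and was called by DESeq2 without the block (adjusted p = 0.032). Beyond, the values returned towards 0 on both sides, as the plot along the stretch shows.

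**Figure D2:**
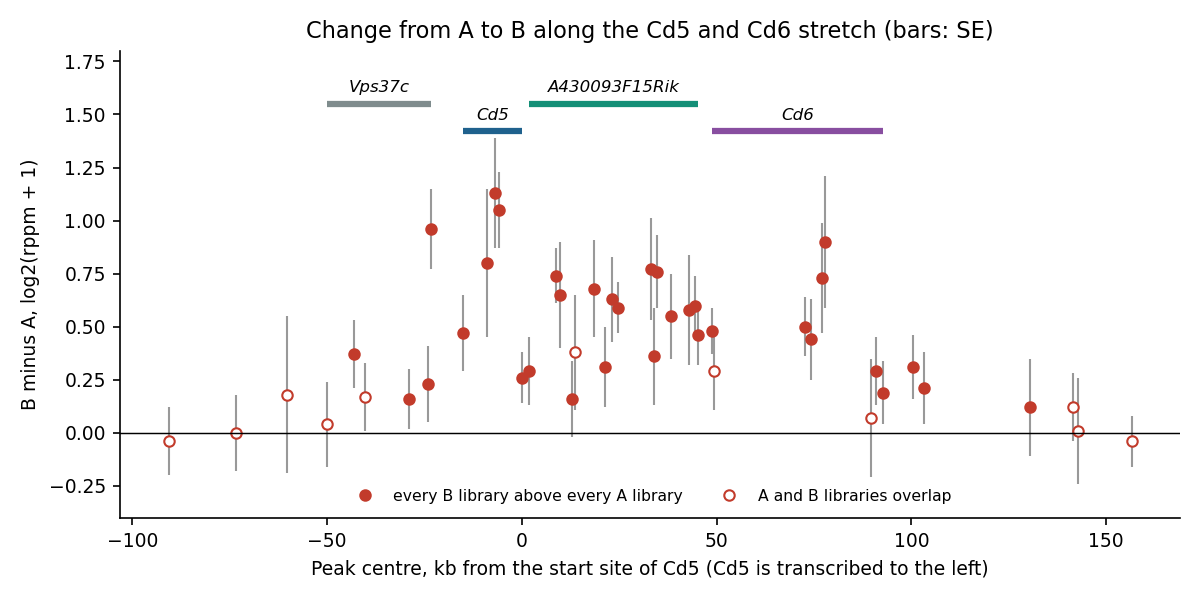
B minus A change in log2(rppm + 1) (y axis, estimate without block, bars SE) at the 30 peaks of the Cd5 and Cd6 stretch and 15 flanking peaks, by distance of the peak centre from the Cd5 start site in kb (x axis). Filled points mark peaks where every B library lay above every A library. Coloured bars span the peaks assigned to each gene. The changes peak at 1.13 inside Cd5 and lie near 0 at both ends.

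To place this stretch, every run of 10 consecutive peaks was read along each chromosome, 45308 windows in all. All 10 peaks were separated upward in 6 windows and 9 of 10 in 18 windows, all of them at this place, where the run extends over 174.6 kb (10695443 to 10870062, 34 of 38 peaks separated). At least 7 of 10 were separated in 15 places, this one included, while no window had more than 6 separated downward. The other 14 places are given by the genes their peaks are assigned to, with no test of a theme. Around Tnfrsf9, the costimulatory receptor 4-1BB, 7 of 8 peaks were separated (chromosome 4, 150921192 to 151006398), and their sums were 96.4 and 100.2 rppm in A and 112 to 117 in B. Around Ndrg1, known as a factor of T cell unresponsiveness, it was 7 of 9 peaks, with sums of 73.0 and 75.8 in A and 80.8 to 86.5 in B. From Cd83, an activation marker, to Gm5083 it was 11 of 14 peaks (chromosome 13, 43774023 to 44210690), with 128 and 134 rppm in A and 151 to 177 in B. From Etv6, an ETS family repressor, to Bcl2l14 it was 12 of 16 (chromosome 6, 134067510 to 134373503), with 80.7 and 75.0 rppm in A and 92.2 to 111 in B. The other places lay at Nrp1, at Dusp4, which encodes a MAP kinase phosphatase, at Lpp, Sox4, Efcab11, Nsg2 and Gm19585, and at the pairs Usp20 and Fnbp1, Sh3gl3 and Efl1, and Fam76b and Sesn3. These counts describe the 5 libraries, and neighbouring peaks are not independent.

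Receptors, ligands and kinases were among the other peaks that rose with the block. Tnfrsf1b encodes TNF receptor 2, a costimulatory receptor of T cells. Its intron 8 peak (chromosome 4, 145221206 to 145222512) held 5.00 and 5.03 rppm in A and 9.02, 10.5 and 10.8 in B, a ratio of means of 2.02 (log2 0.91, SE 0.13, limma adjusted p = 0.0138, and 0.287 without the block). Values in C were like those in B at 9.67 to 12.8, and D stood at 31.4 to 35.2 rppm. Tnfsf11 encodes RANKL, a TNF family ligand that activated T cells make. The peak over its start (chromosome 14, 78306638 to 78308286) held 13.1 and 15.3 rppm in A and 19.8, 22.4 and 25.5 in B (log2 0.67, SE 0.11, limma adjusted p = 0.0334, and 1 without the block). In both genes the groups did not overlap, although the Tnfsf11 call held in only 1 of 11 leave-out fits. The Tnfrsf1b call held in 7 of 11, and in 1 of the 5 that left out an A or B library.

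Sik1 encodes a salt inducible kinase, and the intergenic peak 24.4 kb from it (chromosome 17, 31831027 to 31831695) held 2.07 and 1.91 rppm in A and 5.23, 5.26 and 4.59 in B, a ratio of 2.53 (log2 1.02, SE 0.17, limma adjusted p = 0.0342, and 0.287 without the block). Ptk2b encodes the tyrosine kinase PYK2, which acts downstream of calcium and antigen receptors. Its intron 1 peak (chromosome 14, 66260169 to 66260912) held 12.6 and 9.66 rppm in A and 18.7, 18.0 and 17.0 in B (log2 0.67, SE 0.11, limma adjusted p = 0.0353, and 0.684 without the block). The 3 B values of each peak lay close together and above both A values, and each call held in 1 of 11 leave-out fits.

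Peaks near transcription regulators rose as well. The Maf peak lay 309 kb from the gene of c-Maf, a factor of follicular helper and interleukin producing T cells (chromosome 8, 115397728 to 115398616). It held 6.31 and 4.53 rppm in A and 13.5, 8.70 and 8.62 in B (log2 0.91, SE 0.12, limma adjusted p = 0.0107, and 1 without the block), and the call held in 8 of 11 leave-out fits. When the library left out was of A or B, the call held in 2 of 5 fits. The peak was 1 of 13 assigned to Maf, and 1 of the 13 was higher at an unadjusted p below 0.05. The peak assigned to Bcl2l14 lies in intron 6 of Etv6 (chromosome 6, 134251886 to 134252755). It held 2.61 and 2.01 rppm in A and 5.57, 4.92 and 4.55 in B (log2 0.88, SE 0.15, limma adjusted p = 0.0447, and 0.376 without the block). In D the same site reached 22.1 to 27.3 rppm, and the call held in 1 of 11 leave-out fits.

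The largest rise with the block was 31.8 kb from Bckdhb, which encodes a subunit of the branched chain keto acid dehydrogenase (chromosome 9, 83892815 to 83893774). That peak held 1.09 and 0.906 rppm in A and 4.90, 2.40 and 3.71 in B, with C at 7.20 to 10.8 and D at 17.7 to 26.6 (log2 1.35, SE 0.16, limma adjusted p = 0.00694, and 0.684 without the block). No library of a population overlapped the next one at this peak, and the call held in 10 of 11 leave-out fits. When the library left out was of A or B, the call held in 4 of 5 fits. The peak in intron 1 of Grik4, a kainate receptor subunit, held 2.61 and 2.22 rppm in A and 8.80, 7.44 and 5.95 in B, a ratio of 3.06 (log2 1.31, SE 0.18, limma adjusted p = 0.0107, and 0.287 without the block). All 3 peaks of Grik4 had every B above every A. Other peaks that rose lay in introns of Ccdc148 (assigned to Upp2), Ago2, Ctif and Epb41l4b, in exon 11 of Slc30a7 (assigned to Mir669n), at the promoter of A530021J07Rik, and near Rbm47 and Gm4489. Over the 21 peaks the log2 rise with the block ran from 0.62 to 1.35, with a median of 0.90. Of the 21, 12 were intronic, 5 intergenic and 2 within 1 kb of a start site. At all 21 every B library lay above every A library. DESeq2 without the block called 8 peaks, of which 7 were among these 21.

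**Figure D3:**
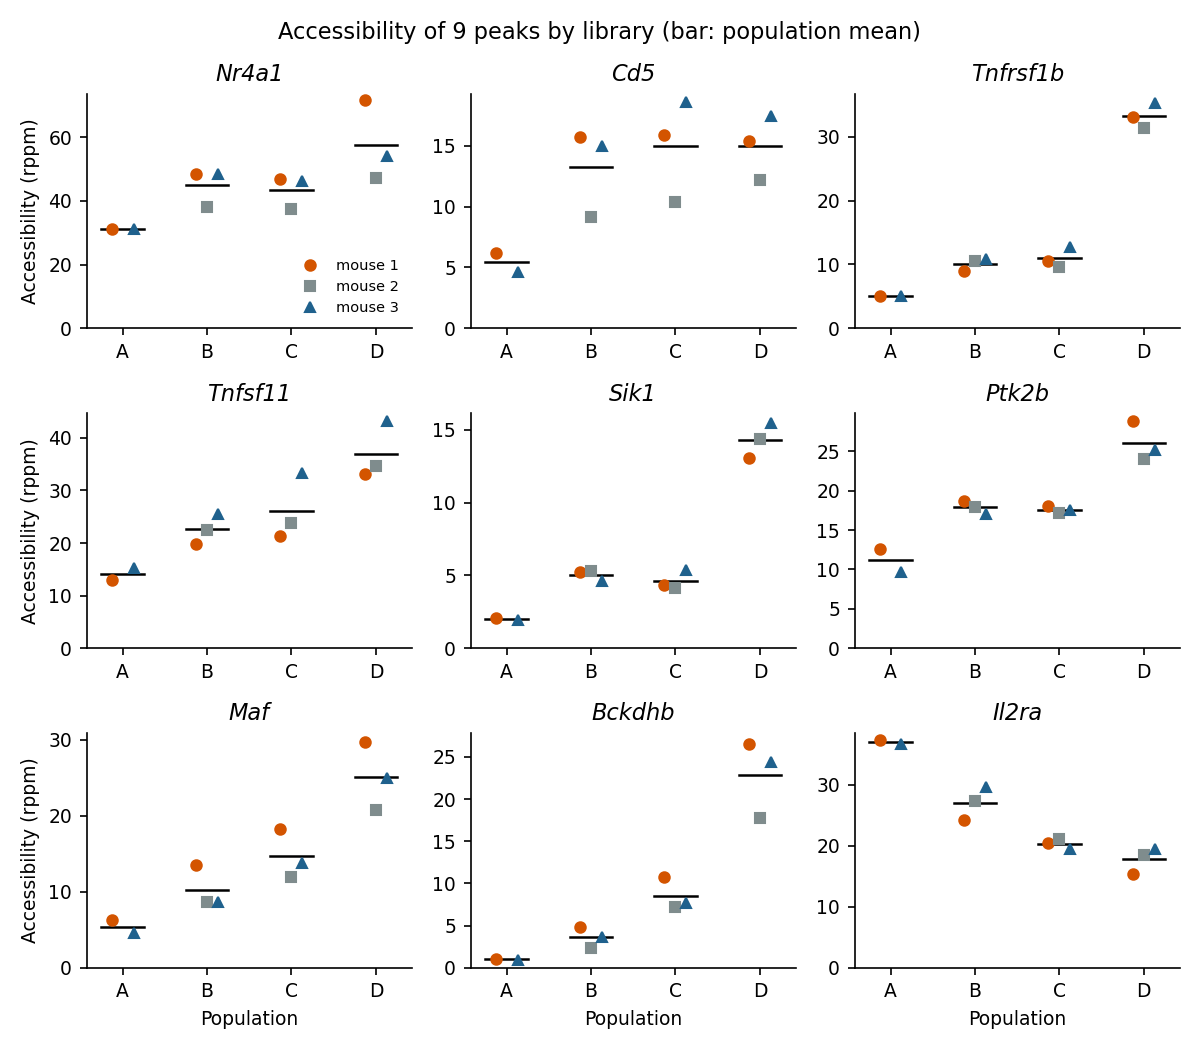
Accessibility in rppm (y axis) of 9 peaks in each library, by population (x axis). Symbols mark the mouse and bars the population mean, with 2 libraries in A and 3 in B, C and D. At 8 peaks all B values exceed both A values, and at Il2ra, which was not called, they lie below them at 24.2 to 29.7 against 36.7 and 37.4 rppm.

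The 6 peaks called lower with the block looked different from those called higher. They lay near Hic2, Timm8a1 and Cd209a, at 2 sites in an intron of Zc3h7a (assigned to Txndc11) and on an unplaced contig, and were 84 to 392 bases wide, against 496 to 1648 for the 21. At 0 of the 6 was every B library below every A library. The Hic2 peak (chromosome 16, 17222208 to 17222528) held 72.7 and 111 rppm in A of mice 1 and 3, and 41.9, 96.6 and 71.2 rppm in B of mice 1, 2 and 3. Mouse 2 was the highest in C (120 against 52.6 and 68.1 rppm) and in D (140 against 62.4 and 77.6), and mouse 1 was the lowest in all 4 populations. With the block its log2 change was -0.75 (SE 0.10, limma adjusted p = 0.0107), and without it -0.43 (SE 0.39, limma adjusted p = 1).

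Gene groups of activated cells leaned towards B with few calls. Of 177 peaks of T cell receptor induced genes, 44 (24.9%) had every B above every A and 10 (5.65%) the reverse, against 12.3% and 7.67% of all peaks. At an unadjusted p below 0.05, 16 (9.04%) were higher and 1 lower, against 2.28% and 0.4% of all peaks, 1 was called with the block (Nr4a1), and the median log2 change was 0.08. Nr4a1, the gene of the reporter that defines A and B, gave 4 of the 16 and 4 of the 44 from 8 peaks. The 16 became 6 without replicate 1 of A, 8 and 7 without replicate 1 or 3 of B, 4 without mouse 3 and 9 after quantile normalization. The peak 9.86 kb before Cd83 held 3.92 and 4.23 rppm in A and 7.91, 8.93 and 6.54 in B (log2 0.79, SE 0.17, limma adjusted p = 0.718). The one lower peak lay 6.98 kb before Il2ra, the interleukin 2 receptor alpha chain, at 37.4 and 36.7 rppm in A and 24.2, 27.4 and 29.7 in B (log2 -0.44, SE 0.13, limma adjusted p = 1). In C and D the Il2ra peak stood lower still, at 19.5 to 21.1 and 15.4 to 19.6 rppm.

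Negative regulators of activation and anergy genes had 86 of 431 peaks (20.0%) with every B above every A and 18 (4.18%) below. Over all peaks these shares were 12.3% and 7.67%, and 2.28% were higher and 0.4% lower at an unadjusted p below 0.05. In this list 25 (5.8%) were higher and 1 lower at an unadjusted p below 0.05, the median log2 change was 0.06, and 1 peak, of Cd5, was called with the block. Cd5 and Cd6, which lie in the stretch picked after its values were seen, gave 9 of the 25 and 12 of the 86 from 14 peaks. Without these genes 16 of 417 peaks were higher and 74 (17.7%) were separated upward. The 25 became 15 without replicate 3 of A or replicate 1 of B, 43 without mouse 1, 7 without mouse 3 and 13 after quantile normalization. An Ndrg1 peak 28.8 kb before the start (chromosome 15, 66998045 to 66998931) went from 0.653 and 0.805 rppm in A to 2.23, 1.83 and 1.56 in B (log2 0.73, SE 0.17, limma adjusted p = 0.903). The A and B values were low beside those of D, at 15 to 17.9 rppm. Of 129 effector and memory peaks, 23 (17.8%) had every B above every A and 6 (4.65%) the reverse, against 12.3% and 7.67% of all peaks. In the same list 8 (6.2%) were higher at an unadjusted p below 0.05 and 0 lower, and 3 were higher without replicate 3 of A, without mouse 3 or after quantile normalization and 5 without mouse 2. The leading one, 19.4 kb from Ifng, which encodes interferon gamma, held 1.09 and 1.31 rppm in A and 3.01, 3.09 and 3.47 in B (log2 0.93, SE 0.16, limma adjusted p = 0.287, and 0.073 with the block).

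Follicular helper and regulatory T cell genes also had more separated peaks upward than the share of all peaks. That share was 12.3% upward and 7.67% downward, with 2.28% higher and 0.4% lower at an unadjusted p below 0.05. Of 164 follicular helper peaks, 32 (19.5%) had every B above every A and 6 (3.66%) below, and 10 (6.1%) were higher and 0 lower at an unadjusted p below 0.05. The 10 became 4 without replicate 3 of A, 5 and 6 without replicate 2 or 3 of B, 6 and 3 without mouse 2 or 3, and 6 after quantile normalization. The promoter peak of Cxcr5, the follicle homing receptor, held 5.11 and 5.64 rppm in A and 7.68, 12.9 and 10.2 in B (log2 0.80, SE 0.22, limma adjusted p = 1). Of 103 peaks of regulatory T cell genes, 26 (25.2%) had every B above every A and 1 (0.971%) below, with 8 (7.77%) higher and 1 lower at an unadjusted p below 0.05. The 8 became 3 and 5 without replicate 1 or 3 of A, 2 and 3 without replicate 1 or 2 of B, 3 and 1 without mouse 2 or 3, and 3 after quantile normalization. Their summed accessibility was 1302 and 1267 rppm in A and 1327 to 1393 in B, and the change at the Foxp3 peak was 0.08 on the log2 scale (SE 0.21, limma adjusted p = 1). The part of regulatory cells that passed the gate was not tested.

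Shares in the other groups ran from near those of all peaks (12.3% separated upward, 7.67% downward) to above them. Of 485 peaks of naive homing and quiescence genes, 14% had every B above every A and 4.54% below, and 11 (2.27%) were higher and 1 lower at an unadjusted p below 0.05, against 2.28% higher of all peaks. Among them, a Foxp1 peak in intron 2 held 29.0 and 28.6 rppm in A and 39.4, 39.6 and 34.7 in B (log2 0.38, SE 0.10, limma adjusted p = 1). The 358 peaks of proximal T cell receptor signalling genes had 12% above and 6.7% below, with a median log2 change of 0.03. Their smallest p was at Csk, the kinase that restrains Lck, at 2.39 and 3.22 rppm in A and 5.01, 6.52 and 4.99 in B (log2 0.77, SE 0.19, limma adjusted p = 1). Of 153 peaks of AP-1, NFAT and NF-kB factor genes, 0 had an unadjusted p below 0.05 by limma without the block, 12.4% were separated upward, and the median change was 0.00. Of 86 peaks of type I interferon response genes, 0 had an unadjusted p below 0.05, and 10.5% were separated upward and 6.98% downward. Thymocyte and recent emigrant genes stood above all peaks in upward separation, with 18.1% upward and 6.25% downward of 144 peaks and 4.86% higher at an unadjusted p below 0.05. The 7 higher peaks became 4 after quantile normalization or without replicate 2 of B. T helper identity genes had 16.3% upward and 4.60% downward of 326 peaks and 3.37% higher, with 1 call with the block, at Cd5. Cd5, which lies in the stretch picked after its values were seen, had 5 peaks in this list. They gave 4 of its 11 higher peaks and 5 of its 53 separated upward. The 11 became 6 after quantile normalization or without mouse 2, and 12 under median-of-ratios scaling.

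Peaks of the Ly6 cluster, which holds the genes of the sort marker Ly6C, were read next. Of its 43 peaks, 5 (11.6%) were separated upward and 5 (11.6%) downward, against 12.3% and 7.67% of all peaks. At an unadjusted p below 0.05, 0 were higher and 1 (2.33%) lower, against 2.28% and 0.4% of all peaks. That 1 peak, 14.9 kb from Ly6c1 (chromosome 15, 75033381 to 75034218), held 21.0 and 19.6 rppm in A and 16.4, 16.8 and 15.1 in B, with no overlap (log2 -0.32, SE 0.14, limma unadjusted p = 0.0362, adjusted p = 1). In C it stood at 10.1 to 12.1 and in D at 5.01 to 5.96 rppm. The 5 peaks of Ly6c2 had log2 changes from -0.22 to 0.12, and 0 were separated. Markers of cells that the gate should exclude were read in the same way. At an unadjusted p below 0.05, 0 of 33 B cell peaks, 2 of 65 myeloid and dendritic peaks (3.08%) and 3 of 66 CD8 T and NK peaks (4.55%) were higher, against 2.28% of all peaks, and 0 were lower. The summed B cell accessibility was 384 and 386 rppm in A and 352 to 391 in B, the myeloid and dendritic sum 791 to 800 and 807 to 819, and the CD8 T and NK sum 948 to 965 and 950 to 983. These peaks cover 11 of 18 B cell, 16 of 20 myeloid and dendritic and 16 of 18 CD8 T and NK genes listed. Upward separation was 21.2% of B cell, 18.5% of myeloid and dendritic and 10.6% of CD8 T and NK peaks, against 12.3% of all peaks. For B cell and for myeloid and dendritic peaks this share was as high as in the lists of negative regulators (20.0%) and follicular helper genes (19.5%) or close to it, and the part of such cells in those lists' values was not tested.

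**Figure D4:**
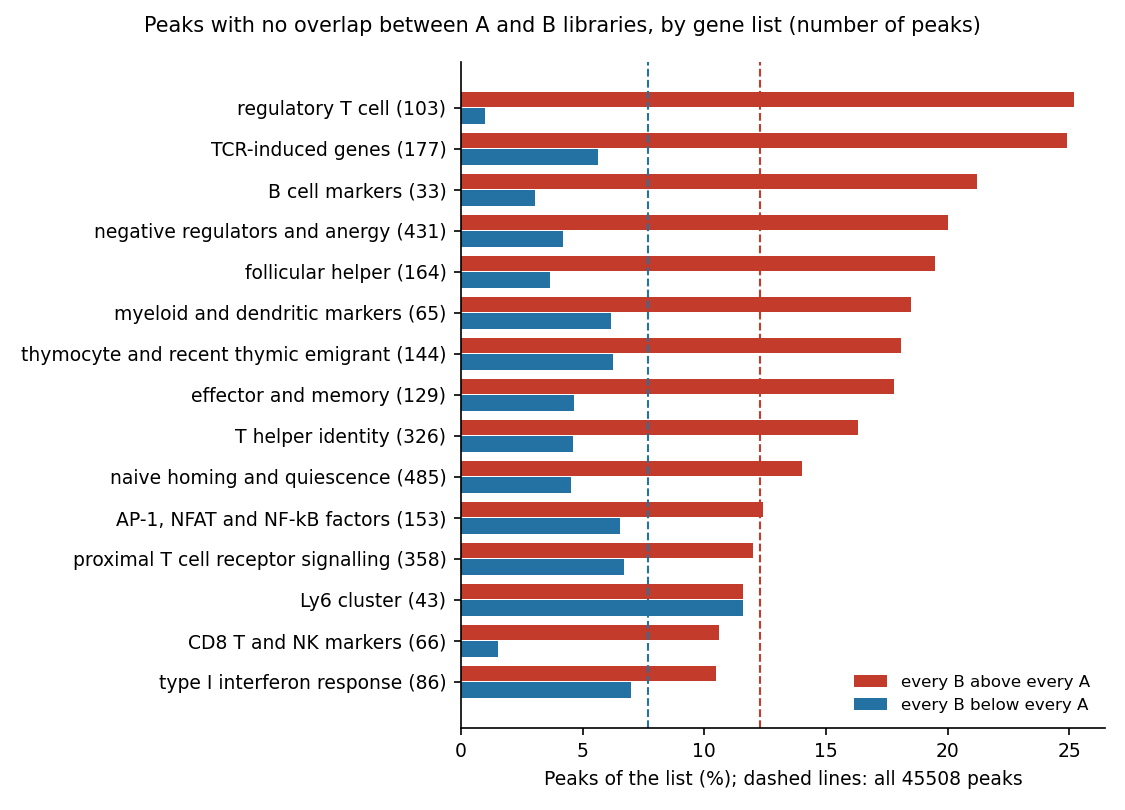
Share of each gene list's peaks (x axis, %) with every B library above every A library (red) or below (blue). Dashed lines give the same shares of all 45508 peaks, 12.3% and 7.67%. Lists are ordered by the red bar, from 25.2% for regulatory T cell genes to 10.5% for type I interferon response genes.

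Peaks that were higher in B lay mostly away from promoters. A start site lay within 1 kb of 26.8% of all peaks. The share was 6.76% of the 1036 peaks higher at an unadjusted p below 0.05 and 17.6% of the 182 lower. It was 14.5% of the peaks with every B above every A and 32.2% of those with every B below. The 1036 higher peaks had median levels of 3.30 rppm in A and 5.21 in B, below the 9.65 and 9.94 of all peaks.

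The step from A to B was set against the step from C to D, which also raises the reporter, but from intermediate to high and among Ly6C negative cells. The D minus C comparison called 2052 peaks higher without the block (4.51%) and 3104 with it (6.82%). Of the 21 peaks that rose from A to B with the block, 14 were also called higher from C to D without it and 19 with it. In the test of the difference between the steps, 287 peaks were called without the block, 277 with a more positive change from C to D than from A to B (0.609%) and 10 with a more negative one (0.022%). With the block the balance was different, with 614 more positive (1.35%) and 371 more negative (0.815%). The count of 287 became 0 without mouse 2, without mouse 3 or when peaks averaging under 5 rppm were left out, and 62 without replicate 1 of A. The 277 peaks had medians of 0.686 rppm in A, 0.795 in B, 1.36 in C and 6.54 in D. Their median log2 changes were 0.10 from A to B and 1.69 from C to D. The 2 steps share no library, but share mice and the model's variance.

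Among the 277, the intron 2 peak of Scyl2 (chromosome 10, 89677829 to 89678555) held 0.419 ± 0.0226 rppm in A (SD, n = 2), 0.605 ± 0.179 in B (n = 3) and 11.6 ± 1.31 in D (n = 3), and the steps differed by a log2 of 2.85 (SE 0.27, limma adjusted p = 0.0015). Intergenic peaks near Ppp2r5c and Il1b, and intron peaks of Runx2 and Stk39, were of the same kind, with means below 0.6 rppm in A and in B. The Cd5 intron 1 peak went the other way. Its step difference was -1.30 with the block (limma adjusted p = 0.00304), with a D minus C change of 0.03 without it, and the A530021J07Rik promoter peak had -0.79 with the block (limma adjusted p = 0.0407). Without the block neither difference was called (limma adjusted p = 0.267 and 0.131). At the Cd5 site B, C and D overlapped above A, and at the A530021J07Rik site A was lowest and B lay below C and D.

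**Figure D5:**
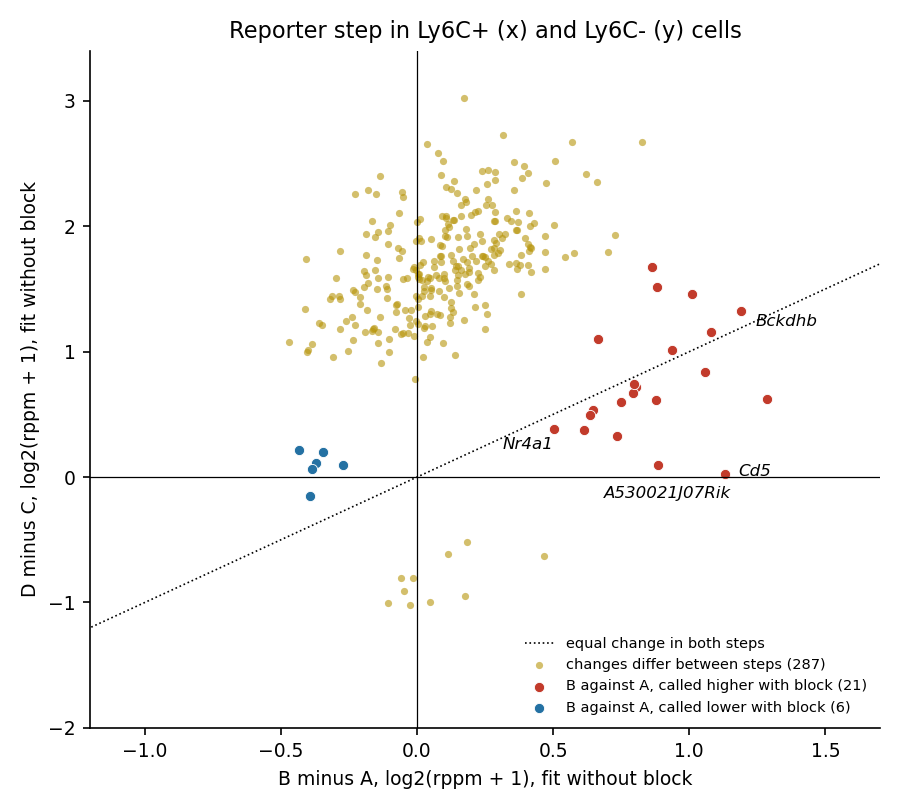
B minus A change (x axis) against D minus C change (y axis), both in log2(rppm + 1) from the fit without block. Yellow points are the 287 peaks chosen because the changes differ, red and blue the peaks called between B and A with the block, and the dotted line marks equal changes. Of the yellow points 277 lie above the dotted line, while Cd5 (1.13, 0.03) and A530021J07Rik (0.89, 0.10) lie below it.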

How the data were processed

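ATAC-seq libraries of 10000 sorted cells each, tagmented for 1 h at 37 °C per the labels' protocols, were read from the deposited table of 45508 peaks (mm10). Its values are RPM, called rppm per the file headers, and what the authors' total counts is not given in the sources used here. Bowtie and MACS2 are listed in the submitters' processing notes, while versions, read filters and any pooling for peak calling are not given in the sources used here. The gene of a peak is the one the authors' table assigns as nearest, and 45447 of 45493 identifiers matched RefSeq.

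The values of every column were whole multiples of 1 step (100% within 0.0006 rppm), which gave whole reads and totals. The main test was limma 3.58.1 (R 4.3.3) on log2(rppm + 1), with all 11 libraries, 1 mean per population, a variance trend and Benjamini-Hochberg adjustment over all peaks, two-sided, with calls at an adjusted p below 0.05. A change on this scale understates ratios at low values. Groups came from the titles, whose number is the mouse. The 15 pairs of libraries from 1 mouse had deviations from the population means correlated at 0.224 to 0.642, and those of the 30 pairs of unlike mice at -0.505 to 0.262, so fits with the mouse as a block are given too. Deviations within a population cancel out by construction, so negative values in pairs of unlike mice are partly forced. EdgeR 4.0.16 and DESeq2 1.42.0 on recovered reads, pseudocounts of 0.25 and 5, a mean of at least 5 rppm, median-of-ratios and quantile scaling, thinning to 8736371 reads, only A and B libraries, and leaving out each library or mouse were alternatives. The limma fits were tested on simulated data. Changes planted there were larger than any seen between A and B, and only at peaks averaging at least 5 rppm. That test does not speak for smaller changes or weaker peaks.

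Named peaks were to be the 12 higher and 12 lower called ones with the largest change, with no overlap and a mean of at least 5 rppm. None passed, since none was called. The rule added the peak with the smallest p of 8 gate genes and the 3 genes with the smallest peak p in each of 15 lists. Peaks called with the block, the Cd5 and Cd6 stretch and the windows were added after their values were seen. The comparison and the lists were chosen with earlier results of these data known. Sequences of distal peaks were not used here. Not every peak called with the block is reported here by name.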

Additional observations from a re-analysis of the deposited data

Results flagged for a closer look

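The change from A to B and the change from C to D differed by the test of the difference itself (limma, adjusted p below 0.05, no block) at 287 peaks, 277 of them with the more positive change from C to D. With the block, 614 were more positive and 371 more negative. Without it, 77 were called with a pseudocount of 0.25 and 0 at a mean of at least 5 rppm. At the Ndrg1 peak 28.8 kb before the start site the difference was 1.2 on the log2 scale (SE 0.22, limma adjusted p = 0.0274). Its A and B libraries held 0.653 to 2.23 rppm, where log2(rppm + 1) understates a change. The ratio of B to A means was 2.57, beside a fitted log2 change of 0.73. The part of the scale in the difference was not tested. All 3 B libraries lay above both A libraries there, and all 3 D libraries above all 3 C libraries. At the Nfkbiz peak on chromosome 16 (55770113 to 55770741) the difference was 1.75 (SE 0.27, limma adjusted p = 0.00881), with 2.39 and 1.21 rppm in A and 1.00, 1.37 and 0.838 in B. Nfkbiz encodes an atypical inhibitor of the NF-kB family, and its A and B libraries overlapped at this peak.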

How the results depend on the processing

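Without a block the count of calls between B and A was 0. It was 27 (21 higher, 6 lower) with the replicate block, 2 (2 higher) with the replicate block and only mice 1 and 3, 8 (8 higher) with DESeq2, 48 (33 higher, 15 lower) with DESeq2 and the replicate block and 108 (82 higher, 26 lower) with edgeR and the replicate block. Fits without an A library, mouse 1 or mouse 3 keep 1 library of A, and their p-values hold no spread within A. The count with the block ran from 2 (without A replicate 1) to 126 (without D replicate 1) when 1 library was left out, and was 1467 without mouse 1, 2 without mouse 2 and 3 without mouse 3. The cause was not tested.

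The 287 peaks whose steps differ became 985 with the replicate block, 1696 with edgeR and the replicate block, 22 with edgeR, 86 with DESeq2, 77 with a pseudocount of 0.25, 544 with a pseudocount of 5 and 507 after quantile normalization. They became 0 at a mean of at least 5 rppm, without mouse 2 and without mouse 3, and ran from 62 (without A replicate 1) to 341 (without D replicate 1) when 1 library was left out. The cause was not tested.

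Sign changes on the log2 scale, all at peaks that were not called without the block, were 0.027 at Ly6c2 without A replicate 3 (range over single libraries -0.46 to 0.027), -0.11 at Foxp3 without A replicate 3 (range -0.11 to 0.267), -0.175 at Foxp3 and -0.012 at Cd4 without mouse 3, 0.054 at Cd8b1 without mouse 1, and 0.035 at Timm8a1 without mouse 3. Of 1807 values of named peaks 1765 kept their direction and side of the threshold. None of these peaks was called in the main fit without the block, so the side kept was that of no call. Of 620 values for the 27 peaks called with the block, 358 stayed called and 262 did not. With 2 libraries in A, the 95% interval of the change without the block reached 0.389 on the log2 scale to either side at the median peak. An estimated change smaller than that could not be told from 0 there, even before adjustment over all peaks. After adjustment the limit was higher, and the largest change over all peaks, a log2 of 1.29, was not called.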
